A study of Mus musculus with 13 samples.

Results

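The genes described here encode the proteins of the cytosolic ribosome. They were taken from the RNA-seq count table as every gene whose symbol is Rpsa or is built as Rpl, Rps or Rplp followed by a number, with pseudogenes left out and with at least 10 counts in every library. Of 56941 genes in the table, 86 met this rule, 51 with names of the large 60S subunit (Rpl, including the P-stalk genes Rplp0, Rplp1 and Rplp2) and 35 with names of the small 40S subunit (Rps and Rpsa). The symbol rule alone found 89, and the other 3 (Rpl10l, Rpl3l and Rps12l1) missed the count minimum: Rpl10l and Rps12l1 had no count in any library, which allows no more than 3 counts in each, and Rpl3l had 2 counts in WT replicate 2 and none elsewhere. Of the 86, 82 are annotated as protein coding in RefSeq, and Rps4l, Rpl6l, Rps3a2 and Rps3a3 as pseudogenes.

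Each ribosome holds a single copy of nearly every ribosomal protein, bound to the ribosomal RNA of its subunit, so cells make these proteins in step. Their mRNAs carry a 5′ terminal oligopyrimidine (TOP) tract, a C at the start followed by an unbroken run of pyrimidines, through which mTOR and the binding protein LARP1 set their translation. T cells that leave rest and divide build ribosomes at a high rate, and ribosomal protein mRNAs are among the most abundant messages of a cultured T cell. A few ribosomal proteins have paralogues, such as Rpl22l1 beside Rpl22, whose products can take the place of the usual protein in the ribosome.

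The libraries came from mouse Th17 cells, the CD4 helper T cells named for IL-17. Naive CD4+ T cells of the spleen were activated and kept under Th17-polarizing conditions for 72 hours. The 3 KO libraries came from mice with Chaf1b alleles flanked by recombination sites and a Cre recombinase driven by Il17f (Chaf1bfl/fl;Il17fCre+), and the 3 WT libraries from mice labelled wild type for Chaf1b, for which the labels do not state whether Cre was present. The product of Chaf1b belongs to chromatin assembly factor 1, which places histones on newly copied DNA. A Cre under Il17f acts only in cells that have turned Il17f on, so a KO culture can hold cells with the gene intact. The labels name no strain, age or number of animals. They call the libraries biological replicates, and p-values here measure the spread between libraries. The other 7 of 13 samples, which hold chromatin assays, were not analysed here.

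Total counts ran from 35708879 to 38395131 in the KO libraries and from 38099488 to 45232055 in the WT libraries. Chaf1b itself had 16.3, 14.9 and 13.5 CPM (counts scaled to library size with TMM factors) in the KO libraries, against 13.2, 11.4 and 11.5 CPM in the WT libraries. These counts add up every exon and the deleted part is not given, so they are no check of the genotype, and every direction below rests on the labels. All 8 Th17 markers had estimates below 0, and 6 passed an adjusted p of 0.05 as lower in KO in edgeR (8 in DESeq2, 6 in limma-voom). Among the 6 was Il17a, at 8.98 ± 0.79 CPM in KO and 66.4 ± 32.7 CPM in WT (SD, n = 3 each). The summed level of the 8 markers was 201 to 215 CPM in KO and 315 to 425 CPM in WT. The CD4 T cell markers summed to 1131 to 1164 CPM in KO and 1228 to 1525 CPM in WT, all 4 with estimates below 0 and none past the threshold in edgeR (2 at an unadjusted p under 0.05; DESeq2 called 2 and limma-voom 0), with Cd4 at -0.36 (adjusted p = 0.0504). The naive T cell markers summed to 774 to 841 CPM in KO and 820.2 to 1389 CPM in WT, all 5 below 0 and none called by these tools (1 at an unadjusted p under 0.05). WT replicate 1 was the highest library for 7 of 8 Th17, all 4 CD4 and all 5 naive T cell markers. The CD8 T cell markers summed to 12.4 to 16.6 CPM in KO and 14.1 to 16.0 CPM in WT. In KO, 4 of 6 gamma delta T cell markers were higher (sum 96.0 to 101 CPM in KO, 51.0 to 63.0 CPM in WT), while the scarce Blk and Sox13 were at -1.85 and -0.38 (adjusted p = 0.174 and 0.704 in edgeR). Also past the threshold in edgeR as higher were 2 of 6 B cell markers (sum 88.2 to 93.3 CPM in KO, 50.8 to 66.1 CPM in WT). So was 1 of 6 myeloid markers (sum 6.27 to 7.89 CPM in KO, 2.44 to 2.84 CPM in WT). The same held for 1 of 4 NK markers (4.22 to 5.21 CPM in KO, 2.44 to 2.85 CPM in WT, with Ncr1, Klrb1c and Klra8 at 0). It also held for 1 of 6 erythroid markers (1.49 to 4.94 CPM in KO, 0.39 to 0.83 CPM in WT, with Hba-a2 at 0). The part of these markers in the ribosomal protein values was not tested. In bulk RNA of this kind, fewer cells of a type and less RNA per cell cannot be told apart.

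The start sites of ribosomal protein genes are shown first, because the TOP tract is the feature by which these mRNAs are known. RefSeq's table of promoters (build GRCm38.p6), which spans 250 bases before to 50 after each annotated start, held 62 of the 86 genes. In 14 of the 62 (22.6%) the annotated start base was a C followed by at least 4 pyrimidines on the gene's strand, against 309 of 9965 (3.1%) of the genes tested for expression that had an entry and 3.01% of all genes in the table. Allowing the annotated start to lie within 5 bases of such a C gave 30 of 62 (48.4%), against 24.1% of tested genes and 21.2% of all. The windows below cover 15 bases on each side of the start, written 5′ to 3′ on the gene's strand, for 12 of the genes whose values are given further on. Rps29, the gene with the lowest estimate, had no entry. Capitals mark the C nearest to the annotated start that 4 or more pyrimidines follow, with those pyrimidines, where there was one within 5 bases. Pyrimidines before that C are left in lower case.
Rpl38, chr11:114668565-114668594, plus strand: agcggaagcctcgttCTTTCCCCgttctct
Rps27, chr3:90213634-90213663, minus strand: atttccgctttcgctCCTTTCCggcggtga
Rpl35, chr2:39005117-39005146, minus strand: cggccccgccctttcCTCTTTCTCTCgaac
Rpl39, chrX:37085208-37085237, minus strand: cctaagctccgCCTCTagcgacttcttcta
Rps28, chr17:33824548-33824577, minus strand: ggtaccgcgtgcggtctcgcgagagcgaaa
Rpl6, chr5:121204486-121204515, plus strand: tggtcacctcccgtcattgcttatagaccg
Rpsa, chr9:120127751-120127780, plus strand: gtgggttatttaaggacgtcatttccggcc
Rps2, chr17:24720048-24720077, plus strand: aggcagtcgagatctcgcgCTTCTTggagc
Rpl22, chr4:152325711-152325740, plus strand: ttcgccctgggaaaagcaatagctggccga
Rpl22, further annotated start, chr4:152324421-152324450, plus strand: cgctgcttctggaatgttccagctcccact
Rpl22l1, chr3:28805493-28805522, plus strand: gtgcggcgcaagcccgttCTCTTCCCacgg
Rps27l, chr9:66946071-66946100, plus strand: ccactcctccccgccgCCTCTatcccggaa
Rps27l, further annotated start, chr9:66946398-66946427, plus strand: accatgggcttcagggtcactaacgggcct
Rpl39l, chr16:10170213-10170242, plus strand: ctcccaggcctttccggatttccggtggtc
In Rpl38, Rps27 and Rpl35 the annotated start base was itself such a C, and it lay inside a pyrimidine stretch that also reached upstream. In Rpl6, Rpsa, Rps28, Rpl39l, both Rpl22 starts and the further Rps27l start, no such C lay within 5 bases of the start. In Rpl39l, a run that began further upstream ended at the base directly before the start. The windows of Rpl6 and the further Rpl22 start also held runs that began further away. Such runs are not marked. No match says only that these letters were not at the annotated start, which can differ from the start used in T cells.

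The same promoters were searched on both strands for 5 other short sequences. GGAAG or its complement CTTCC, the core bound by ETS factors, stood in 91.9% of the 62 ribosomal protein promoters and in 79.5% of those of tested genes. CTTCC is itself a C followed by 4 pyrimidines, so a single stretch can count for both features. AAGATGG, the core of the YY1 motif, or CCATCTT was present in 16.1% of the ribosomal protein promoters and 8.42% of those of tested genes. TATAAA or TTTATA was found in 12.9% against 8.55%, CACGTG, the E-box bound by MYC, in 9.68% against 11.8%, and GGGCGG or CCGCCC in 61.3% against 68.3%. These shares describe letters in a window and carry no test.

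The comparison asked whether ribosomal protein mRNAs differed between KO and WT Th17 cells. As a class they took close shares of both transcriptomes. The 86 genes held 9.62%, 9.51% and 9.38% of all counts in the KO libraries, against 9.72%, 9.36% and 9.69% in the WT libraries. The means were 9.51 ± 0.12% in KO and 9.59 ± 0.20% in WT (SD, n = 3 each), so the groups overlapped and their difference was smaller than the spread among WT libraries. The 60S genes took 5.41% to 5.51% of counts in KO and 5.35% to 5.61% in WT, and the 40S genes 3.98% to 4.11% in KO and 4.003% to 4.14% in WT. The ratio of 60S to 40S counts was 1.34, 1.35 and 1.36 in the KO libraries and 1.36, 1.34 and 1.34 in the WT libraries. The KO and WT ratios overlapped.

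Gene by gene, none of the 86 passed a threshold of 0.05 on the p-value of edgeR's quasi-likelihood F-test, adjusted by Benjamini and Hochberg over 14681 genes, where 6.39% of all genes tested passed (938 genes, 576 higher and 362 lower in KO, or 464 higher and 502 lower when scaled by library totals alone). DESeq2 and limma-voom also called 0 of the 86. At an unadjusted p under 0.05 edgeR found 15 ribosomal protein genes, 7 higher and 8 lower in KO, which is 17.4% against a background of 21.1% of all genes tested. In 21 of the 86 (24.4%) the ranges of KO and WT were separate, 14 with KO above and 7 with KO below, against 26.8% of all genes tested. Exactly as many fold changes lay above 0 as below it, 43 each. The median log2 fold change was 0.0018 over the 86 genes and -0.0064 over all genes tested. These shares did not stand above those of all genes.

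The absence of calls came with narrow intervals. The median 95% interval of a ribosomal protein gene reached 0.0977 log2 units to each side of its estimate, against 0.236 for all genes tested and 0.147 for the 7163 genes with a mean of at least 20 CPM. For 73 of the 86 genes the whole interval lay inside a 1.25-fold change in either direction, for 81 inside 1.5-fold and for 85 inside 2-fold. Rpl39l was the exception at 2-fold, and Rpl24, Rpl32l, Rps29 and Rps4l were added at 1.5-fold. The median absolute log2 fold change was 0.0567 for the 86 genes, 0.0829 for genes with a mean of at least 20 CPM and 0.135 for all genes tested. Counts behind a single value ran from 20 to 203260, and 79 of the 86 had at least 1000 counts in every library. The 7 with fewer were Rpl24, Rpl32l, Rpl39l, Rps10, Rps3a2, Rps3a3 and Rps4l.

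**Figure D1:**
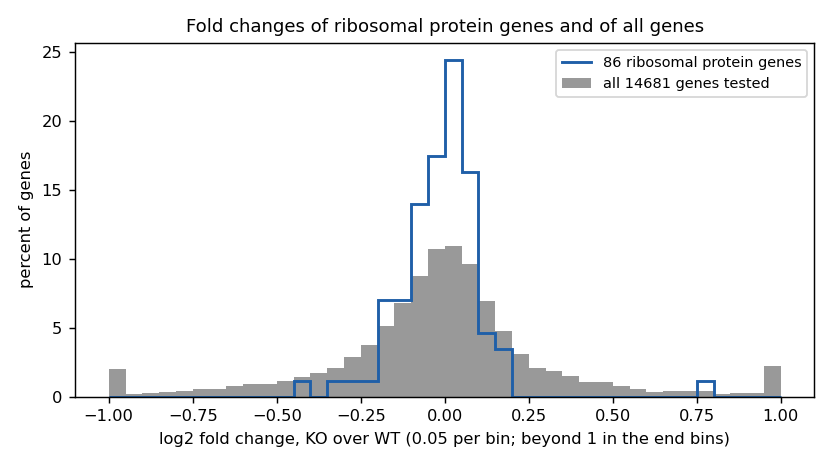
Distribution of log2 fold changes (KO over WT, horizontal axis) as the percent of genes per bin (vertical axis), with the 86 ribosomal protein genes as a blue line and all 14681 genes tested in grey, and values beyond 1 in either direction placed in the end bins. Ribosomal protein genes cluster around 0, and the median size of a log2 fold change is 0.0567 for them against 0.135 for all genes.

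**Figure D2:**
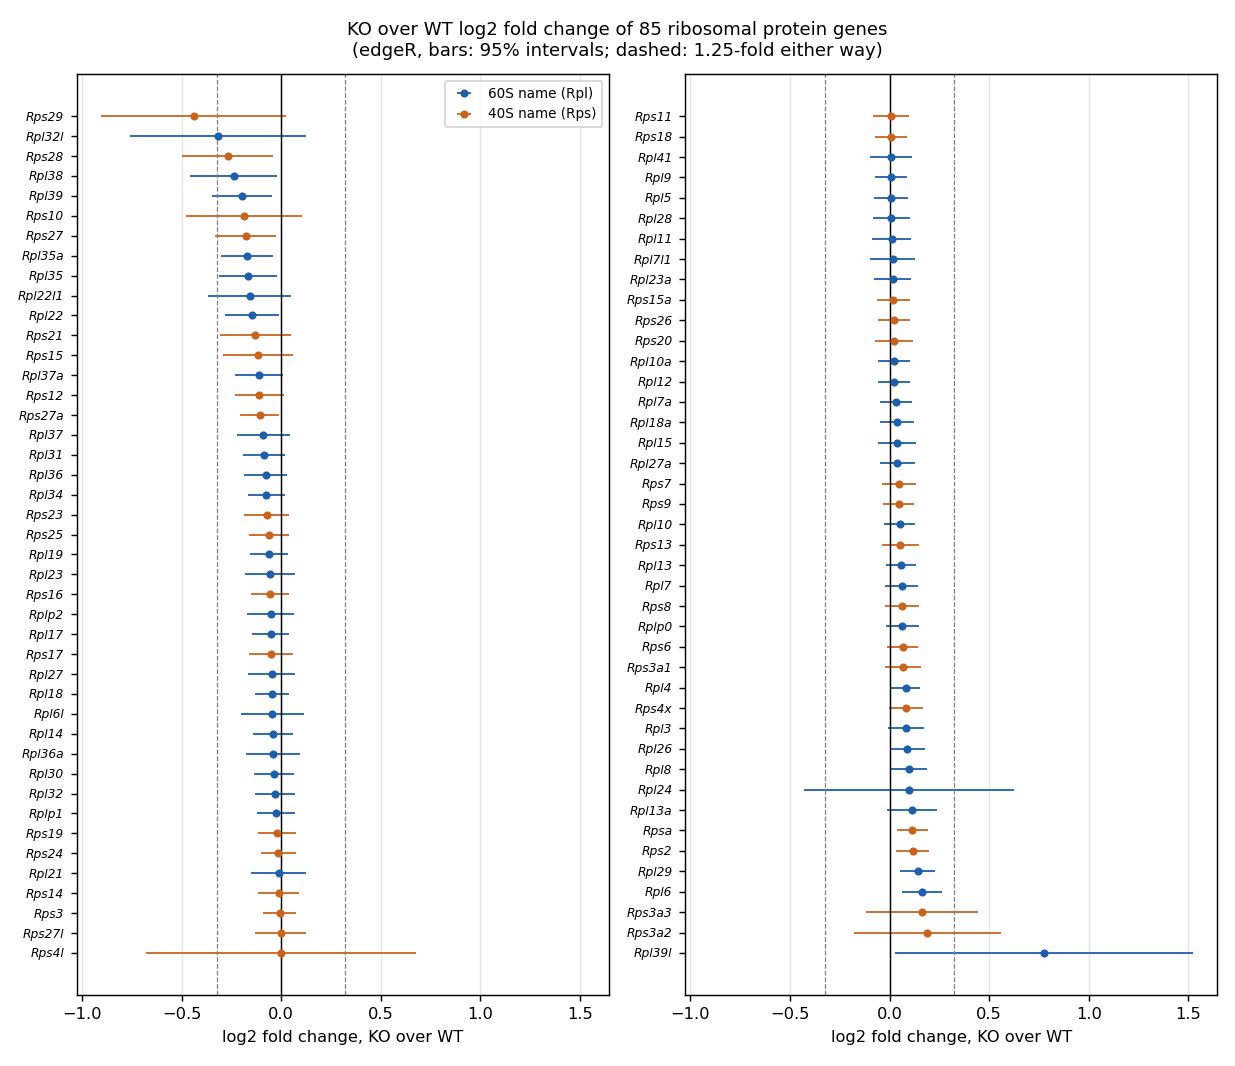
Log2 fold change (KO over WT, horizontal axis) of 85 of the 86 ribosomal protein genes with its 95% interval in edgeR, from the lowest at the top left to the highest at the bottom right, 60S names in blue and 40S names in orange. Estimates run from -0.44 for Rps29 to 0.78 for Rpl39l, and most intervals lie inside the dashed lines at 1.25-fold.

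Among the 60S genes the median log2 fold change was 0.0067, with 26 above 0 and 25 below, and among the 40S genes -0.0020, with 17 above and 18 below. The P stalk recruits elongation factors to the ribosome. Its 4 genes, Rplp0, Rplp1, Rplp2 and Rpl12, lay between -0.05 and 0.06. Rplp0, the base of the stalk, had 4951, 4885 and 4824 CPM in KO, against 4885, 4668 and 4465 CPM in WT (log2 fold change 0.06, 95% interval -0.02 to 0.15), and the groups overlapped.

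Rpl5 and Rpl11 carry the 5S ribosomal RNA into the large subunit and, when ribosome assembly falters, bind Mdm2 and so stabilize p53. Rpl5 had 2265, 2264 and 2216 CPM in KO and 2153, 2215 and 2339 CPM in WT (log2 fold change 0.01, 95% interval -0.08 to 0.09). Rpl11 had 956, 956 and 909 CPM in KO and 957, 882 and 963 CPM in WT (0.01, 95% interval -0.09 to 0.11). For both genes the KO libraries lay within the range of the WT libraries.

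Of 3 genes grouped at the mRNA entry channel of the 40S subunit (Rps2, Rps3 and Rps9), Rps2 was highest in KO relative to WT, at 3001, 2915 and 2836 CPM in KO and 2790, 2690 and 2602 CPM in WT, with no overlap (log2 fold change 0.11 ± 0.04 SE, adjusted p = 0.111 in edgeR). Rps14, Rps26 and Rps28 lie at the mRNA exit, and Rps28 is described with the lowest genes. The 8 genes grouped at the rim of the peptide tunnel (Rpl17, Rpl19, Rpl22, Rpl23a, Rpl26, Rpl31, Rpl35 and Rpl38) had a median of -0.07, with 6 below 0 and 3 (Rpl22, Rpl35 and Rpl38) under an unadjusted p of 0.05 (37.5%, against 21.1% of all genes tested), none of which passed after adjustment. WT replicate 3 was the highest library for these 3 genes, and without it their estimates were -0.07 for Rpl22, -0.08 for Rpl35 and -0.10 for Rpl38.

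Several members are read outside the ribosome or serve as loading references in other work. Rplp0, Rpl13a and Rps18 are common reference genes for quantitative PCR. Rps18 had 1746, 1689 and 1688 CPM in KO and 1719, 1665 and 1717 CPM in WT (log2 fold change 0.01, 95% interval -0.07 to 0.09). Rpl13a had 62.3, 67.3 and 63.4 CPM in KO and 61.1, 58.6 and 58.8 CPM in WT, with each KO library above each WT library (0.11, 95% interval -0.01 to 0.24, adjusted p = 0.291 in edgeR). Rps6, the 40S protein that S6 kinase phosphorylates downstream of mTOR, had 2235, 2260 and 2186 CPM in KO and 2132, 2166 and 2087 CPM in WT (0.07, adjusted p = 0.320 in edgeR), again without overlap.

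Rps19, mutated in many cases of Diamond-Blackfan anaemia in people, differed by -0.02 (95% interval -0.12 to 0.08) on the log2 scale. Rpl10, which joins the large subunit late in its assembly, differed by 0.05 (-0.03 to 0.13). Rpl41, which encodes a very short peptide, differed by 0.01 (-0.10 to 0.11), and Rpl13 by 0.06 (-0.02 to 0.13). All 4 intervals lay inside a 1.25-fold change.

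The highest estimates with ample counts were small and came from long-studied subunit proteins. Rpl6 (ENSMUSG00000029614.14), a 60S protein, had 1720, 1686 and 1658 CPM in KO, against 1585, 1530 and 1411 CPM in WT. The groups did not overlap, and the log2 fold change of 0.16 ± 0.05 (SE; 95% interval 0.06 to 0.26) had the lowest adjusted p of the 86 genes, 0.0622 in edgeR. Rpl29 had 659, 674 and 664 CPM in KO and 615, 612 and 586 CPM in WT (0.14 ± 0.04, adjusted p = 0.0657 in edgeR). Rpsa, the 40S protein also known as the laminin receptor, had 4155, 4136 and 3993 CPM in KO and 3907, 3711 and 3731 CPM in WT (0.11 ± 0.04, adjusted p = 0.0839 in edgeR). In each of these genes every KO library stood above every WT library, and none passed the threshold. WT replicate 3 was the lowest library for Rpl6, Rpl29 and Rps2, and WT replicate 2 for Rpsa. Without WT replicate 3 the estimates were 0.12 for Rpl6, 0.12 for Rpl29, 0.10 for Rpsa and 0.09 for Rps2.

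The lowest estimates came with another arrangement, in which WT replicate 3 stood above all other libraries. Rps29 (ENSMUSG00000034892.9), a zinc-binding protein of the 40S head, had 380, 326 and 383 CPM in KO, against 443, 394 and 641 CPM in WT. The KO libraries were all below the WT libraries, and the log2 fold change of -0.44 ± 0.19 (SE; 95% interval -0.91 to 0.03) had an adjusted p of 0.258 in edgeR. Rps28, which lies beside the exit of the mRNA channel, had 301, 276 and 300.2 CPM in KO and 335, 303 and 418 CPM in WT (-0.27 ± 0.10, adjusted p = 0.163 in edgeR), also without overlap. Rpl38, whose loss in the mouse alters the body plan through the translation of Hox mRNAs, had 215, 195 and 203 CPM in KO and 230.1, 209 and 283 CPM in WT (-0.24 ± 0.10, adjusted p = 0.193 in edgeR). The Rpl38 groups overlapped, since KO replicate 1 was above WT replicate 2.

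Rpl39, which lines the peptide tunnel, had 366, 356 and 371 CPM in KO and 429, 369 and 456 CPM in WT (-0.20 ± 0.07, adjusted p = 0.121 in edgeR). Rps27, a zinc-binding 40S protein, had 457, 422 and 437 CPM in KO and 474, 457 and 559 CPM in WT (-0.18 ± 0.07, adjusted p = 0.170 in edgeR). The 60S gene Rpl35a had 663, 639 and 659 CPM in KO and 722, 678 and 808 CPM in WT (-0.17 ± 0.06, adjusted p = 0.118 in edgeR). Rpl35 had 454, 451 and 438 CPM in KO and 488, 459 and 563 CPM in WT (-0.17 ± 0.07, adjusted p = 0.172 in edgeR), and in both genes the groups did not overlap. In all 7 of these genes WT replicate 3 was the highest library. Among genes with few counts, Rpl32l was at -0.32 (95% interval -0.76 to 0.12) and Rps10 at -0.19 (-0.48 to 0.10).

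Over all 86 genes, WT replicate 3 was the highest of the 6 libraries for 37, KO replicate 1 for 27 and WT replicate 2 for none, whereas WT replicate 3 was the highest for 20.1% of all genes tested. In 21 genes WT replicate 3 was at least 1.1-fold above the mean of the other WT libraries, and 19 of these 21 had an estimate below 0. That library is part of the WT mean, so a high value in it lowers the estimate by construction. WT replicate 3 was 1.53-fold above the mean of the other WT libraries for Rps29, 1.31-fold for Rps28 and 1.29-fold for Rpl38. Without WT replicate 3 the Rps29 estimate was -0.20, that of Rps28 -0.13 and that of Rpl38 -0.10, and the lowest of all 86 was -0.20 in place of -0.44. The others named among the lowest also lay closer to 0 without it, at -0.13 for Rpl39, -0.09 for Rps27, -0.10 for Rpl35a, -0.08 for Rpl35 and -0.07 for Rpl32l. Rps10 was at -0.13 in place of -0.19, and Rps12 at -0.04 in place of -0.11. Each of these estimates except that of Rps10 was more than 1.5 times smaller without that library. The lowest genes were picked with WT replicate 3 included, so smaller estimates without it follow in part from the choice.

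**Figure D3:**
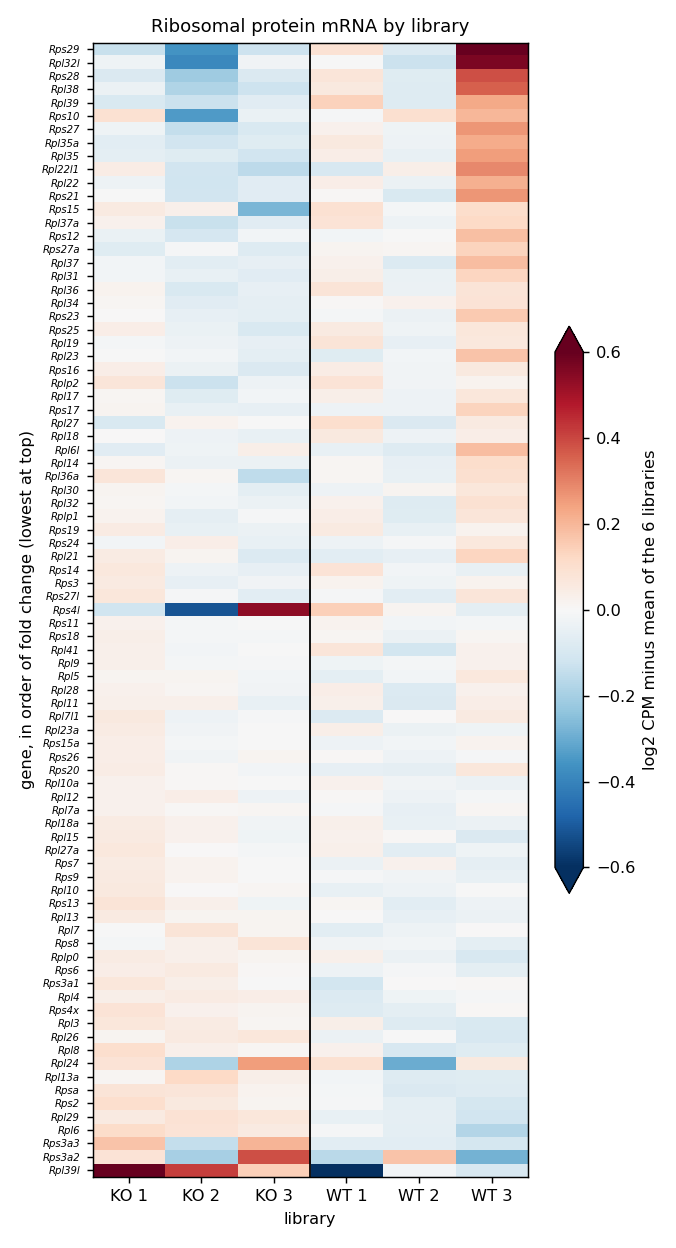
Level of 85 of the 86 ribosomal protein genes (vertical axis, ordered by fold change) in each of the 3 KO and 3 WT libraries (horizontal axis), as log2 CPM minus each gene's mean over the 6 libraries, red above and blue below that mean, with colours ending at 0.6. The upper genes are reddest in WT replicate 3, where Rps29 was 1.53-fold above the mean of the other WT libraries, and most of the middle lies close to white.

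Which genes passed depended on the handling of the data. With no filter on low counts, 7 of the 86 passed (Rpl6 higher, and Rpl35, Rpl35a, Rpl38, Rpl39, Rps27 and Rps28 lower in KO), against 6.01% of the 26083 genes then tested. Without WT replicate 1, 10 passed (11.6%), where 19.7% of 15039 genes did. Rplp0, Rpl6, Rpl29, Rpsa, Rpl8, Rpl3 and Rps2 were then higher in KO and Rpl22l1, Rps12 and Rps27a lower, with changes between -0.24 and 0.20 on the log2 scale. Without WT replicate 2, Rpl39 alone passed (-0.28, adjusted p = 0.0286 in edgeR).

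Paralogue pairs allow a comparison inside each library that no scaling between libraries can move. For 8 pairs the log2 ratio of the paralogue to its parent was set against genotype with a two-sided exact permutation test, which for 3 against 3 libraries cannot go below p = 0.1, so no pair could pass. Rpl22 is dispensable for general protein synthesis but needed for the development of alpha beta T cells in the mouse, and Rpl22l1 is its paralogue, which can replace it. Rpl22 (ENSMUSG00000028936.16) had 341, 320.0 and 331 CPM in KO and 357, 339 and 403 CPM in WT (log2 fold change -0.15 ± 0.06, adjusted p = 0.193 in edgeR). Rpl22l1 (ENSMUSG00000039221.11) had 104, 93.4 and 90.6 CPM in KO and 94.6, 104 and 124 CPM in WT (-0.16 ± 0.09, adjusted p = 0.368 in edgeR).

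The balance of the pair differed between the groups by less than its error. Rpl22l1 made up 23.4%, 22.6% and 21.5% of the counts of the pair in KO, against 21.0%, 23.4% and 23.5% in WT. The mean log2 ratio was -1.78 ± 0.08 in KO and -1.78 ± 0.12 in WT (SD, n = 3 each), a difference of -0.0078 ± 0.083 (SE; exact permutation p = 0.9). WT replicate 3 was the highest library for both genes, and without it the estimates were -0.07 for Rpl22 and -0.04 for Rpl22l1. The Rpl22l1 call in the absence of WT replicate 1, named above, was at -0.24 (adjusted p = 0.0401 in edgeR).

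In 3 of the 8 pairs every KO ratio stood above every WT ratio. How often ratios of other gene pairs separate in this way was not counted. Rps27l, a paralogue of Rps27 that p53 is known to induce, made up 17.4%, 17.8% and 16.7% of its pair in KO, against 16.2%, 16.1% and 14.7% in WT, a log2 difference of 0.17 ± 0.06 (SE; exact permutation p = 0.1, adjusted over 8 pairs 0.267). Rps27l itself had 96.1, 91.2 and 87.5 CPM in KO and 91.3, 87.6 and 96.3 CPM in WT (log2 fold change -0.0024, 95% interval -0.13 to 0.13). Rps27, whose values are given above, was at -0.18. WT replicate 3 had the lowest log2 ratio of this pair, -2.54, against -2.38 in each of the other WT libraries.

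Rpl39l, a paralogue of Rpl39 known from the testis in the mouse, had only 62, 55 and 44 counts in KO and 20, 41 and 46 counts in WT. That is 1.77, 1.44 and 1.20 CPM in KO and 0.49, 1.07 and 1.01 CPM in WT, again without overlap. Its log2 fold change of 0.78 ± 0.34 (95% interval 0.03 to 1.52, adjusted p = 0.218 in edgeR) was the largest of the 86 genes and the least precise. It made up 0.48%, 0.40% and 0.32% of its pair in KO, against 0.11%, 0.29% and 0.22% in WT (log2 difference 1.04 ± 0.44 SE, exact permutation p = 0.1). Without WT replicate 1, the library with 20 counts, the log2 fold change was 0.50 and the difference of the pair 0.65.

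The third was Rpl36al with Rpl36a. Rpl36al, which the symbol rule does not take in, made up 1.46% to 1.65% of the pair in KO and 1.30% to 1.39% in WT (log2 difference 0.21 ± 0.06 SE, exact permutation p = 0.1). The ratios of Rpl7l1 to Rpl7 (-0.04, exact permutation p = 0.6), Rpl6l to Rpl6 (-0.20, p = 0.2), Rpl32l to Rpl32 (-0.26, p = 0.5) and Rps4l to Rps4x (-0.15, p = 0.7) overlapped between the groups. Rpl6l and Rps4l are annotated as pseudogenes.

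**Figure D4:**
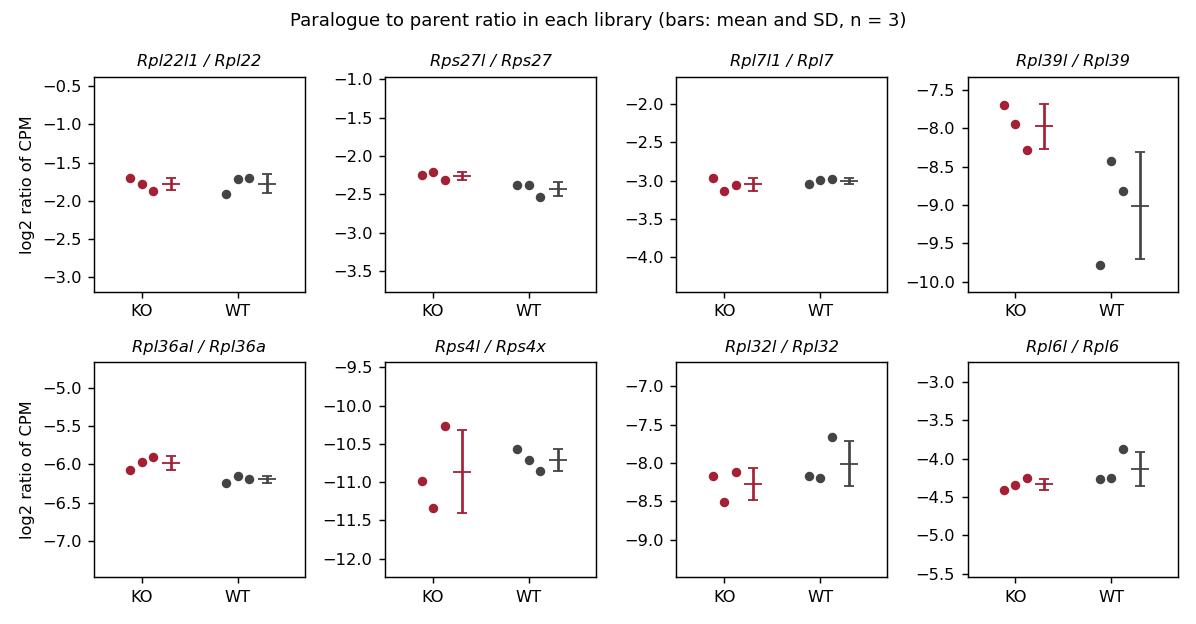
Log2 ratio of CPM of each paralogue to its parent gene (vertical axis, with each panel centred on its own range) in the 3 KO libraries (red) and the 3 WT libraries (grey), with the mean and SD beside the points. KO and WT ratios of Rpl22l1 to Rpl22 overlap, whereas those of Rps27l to Rps27, Rpl39l to Rpl39 and Rpl36al to Rpl36a do not.

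Ribosomal protein genes have many processed copies in the genome, and the table holds 300 named pseudogenes of these genes, 86 of them with no count. They took 0.268%, 0.265% and 0.255% of counts in the KO libraries, against 0.266%, 0.255% and 0.237% in the WT libraries. Of 114 tested, 59 lay above 0 and 55 below, and 1 passed, Rps10-ps1 (log2 fold change 0.36 ± 0.09, adjusted p = 0.0476 in edgeR). That call was lost under the upper-quartile scaling, library totals, limma-voom and the filter at 1 CPM, and when any 1 library other than WT replicate 1 was left out.

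Because reads that map to several places were not counted, near-identical copies take reads from the parent gene or remove them, and the levels of such genes are uncertain. For 8 genes the named pseudogenes held over 10% as many counts as the parent. Copies under other names were not searched, so further genes can be affected. Rps10 had 2230 counts over the 6 libraries, whereas its pseudogenes had 107410, of which Rps10-ps2 held 102684. Rps10 had 9.998, 7.42 and 9.13 CPM in KO and 9.36, 10.03 and 10.8 CPM in WT, and Rps10-ps2 averaged 447 CPM in KO and 430 CPM in WT (0.06, adjusted p = 0.643 in edgeR). The pseudogenes of Rps12 held 0.816 times its counts, nearly all in Rps12-ps3, which had 609, 643 and 607 CPM in KO and 565, 588 and 432 CPM in WT (0.23, adjusted p = 0.224 in edgeR), whereas Rps12 itself was at -0.11. The other 6 were Rpl38, Rpl21, Rpl17, Rpl14, Rps16 and Rpl36a.

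The ribosomal protein genes Fau, Rack1 and Rpl36al, which the symbol rule does not take in, had estimates within the range of the 86. Fau encodes a 40S protein fused to a ubiquitin-like protein, and Rack1 is a scaffold on the 40S head. Fau was at 0.06, Rack1 at 0.01 and Rpl36al at 0.17 on the log2 scale (adjusted p = 0.492, 0.889 and 0.504 in edgeR). None of these 3 passed there, in DESeq2 or in limma-voom, and 0 had an unadjusted p under 0.05 in edgeR.

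Other genes of translation were read from lists chosen for their role. Of 10 elongation factors, 1 was called, Eef1a1, which delivers aminoacyl-tRNA to the ribosome. It rose to 16822 ± 182 CPM in KO, against 15532 ± 392 CPM in WT (SD, n = 3 each; log2 fold change 0.12 ± 0.03, adjusted p = 0.0405 in edgeR). The call was lost in DESeq2 (adjusted p = 0.131), with library totals, with no filter and when any 1 library other than WT replicate 1 was left out. Eef2, the translocase, was at 0.14 (adjusted p = 0.1005 in edgeR), and it passed with no filter (0.13, adjusted p = 0.0180) and without WT replicate 1 (0.19, adjusted p = 8.53e-05). Tpt1 was at -0.02. Of 32 initiation factors none passed in edgeR, DESeq2 or limma-voom (5 at an unadjusted p under 0.05 in edgeR), with 27 above 0 and 5 below and a median of 0.05, where 7146 of 14681 genes tested lay above 0. WT replicate 1 was the lowest library for 21 of the 32. Pabpc1, the poly(A)-binding protein, was at 0.07.

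Of 15 genes listed for the control of TOP mRNA translation, 14 were tested, 13 lay below 0 and 1 was called. At an unadjusted p under 0.05 edgeR found 5 of the 14, against 21.1% of all genes tested. The called gene was Myc, listed as a transcription factor that drives ribosome production. Myc fell to 317 ± 11.3 CPM in KO, against 381 ± 40.02 CPM in WT (SD, n = 3 each; log2 fold change -0.27 ± 0.07, adjusted p = 0.0466 in edgeR). The call was lost with DESeq2's size factors in edgeR (0.0510), in limma-voom (0.0595) and when any 1 library other than WT replicate 1 was left out. Larp1, the TOP-binding protein, was at -0.15 (adjusted p = 0.0934 in edgeR) and passed with library totals (-0.18, adjusted p = 0.0401) and without WT replicate 1. Eif4ebp2 was at -0.19 (adjusted p = 0.0799 in edgeR). It passed with no filter (-0.19, adjusted p = 0.0187), without WT replicate 1 (-0.14, adjusted p = 0.0229) and without WT replicate 3 (-0.24, adjusted p = 0.0140). Tsc1 was at -0.15 and Pdcd4 at -0.17 (adjusted p = 0.228 and 0.174 in edgeR), and Tsc1 passed without WT replicate 1 (-0.20, adjusted p = 0.0110). Mtor was at -0.07, Rps6kb1, an S6 kinase, at -0.01 and Eif4ebp1, which mTOR switches off to free eIF4E, at -0.03.

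None of 8 chaperones of ribosomal proteins passed in edgeR, DESeq2 or limma-voom (2 at an unadjusted p under 0.05 in edgeR), with Npm1, the nucleolar histone and ribosome chaperone, at 0.22 (adjusted p = 0.154 in edgeR). Npm1 passed with no filter (0.22, adjusted p = 0.000421), without WT replicate 1 (0.12, adjusted p = 0.0165) and without WT replicate 3 (0.30, adjusted p = 0.0221), and Nap1l1, another histone and ribosomal protein chaperone, passed without WT replicate 3 (0.23, adjusted p = 0.0211). The snoRNA host genes, whose spliced transcripts also start with a TOP tract, had no call among 7 tested in any of these tools (2 at an unadjusted p under 0.05 in edgeR), and all 7 lay below 0, with a median of -0.14. WT replicate 3 was the highest library for all 7, and WT replicate 1 the lowest for 4 of them. Gas5, the best known of them, was at -0.17 (adjusted p = 0.395 in edgeR). Without WT replicate 1, Gas5 (-0.28, adjusted p = 0.000561) and Snhg8 (-0.29, adjusted p = 0.0482) passed as lower in KO. For Gas5 the library left out stood below each KO library, at 326 CPM against 351, 352 and 342 CPM in KO.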

How the data were processed

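The authors counted reads per gene with featureCounts 2.0.1 and deposited the raw counts. The annotation was GENCODE vM33, as the file headers say. Exons were counted and summed by gene, and the commands set no option for strand, multi-mapping reads or read pairs, so a gene and an antisense or overlapping neighbour cannot be told apart. The genome build is not given in the sources used. The deposited values of WT replicate 2 were entered as other in the record of units, although they are raw counts too. Symbols were found for 51948 of 56941 gene IDs (91.2%). The table has no gene lengths, so levels were not compared between genes.

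The 3 KO and 3 WT libraries, grouped by their labels, were compared with edgeR 4.0.16 (R 4.3.3) using its default filter, TMM factors (0.984 to 1.016) and a robust quasi-likelihood F-test, adjusted by Benjamini and Hochberg over 14681 genes at a threshold of 0.05. Fold changes are KO over WT. At these depths the median 95% interval of a ribosomal protein gene reached 0.0977 log2 units to each side. DESeq2 1.42.0, limma-voom (limma 3.58.1), other scalings and filters, a replicate block and leaving out each library were tried as alternatives. No pair of libraries was alike within counting noise (lowest chi-square over its degrees of freedom 4.19), and all 6 were kept. The highest value, 33.1, was that of WT replicates 1 and 3. It lay above every pair of a KO and a WT library, of which the highest was 31.5 (KO replicate 1 with WT replicate 1). WT replicates 1 and 2 were at 18.8, and WT replicates 2 and 3 at 7.54.

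The members and gene lists were chosen with earlier results of these data known. Genes were named by a rule: paralogue pairs, 11 well-known members, ribosomal proteins that the symbol rule misses, called members, and 10 genes of translation control, growth or the deletion. Its part on the highest and lowest members per kilobase could not be applied. Other genes in the text, among them those with the lowest and highest estimates, were chosen after their values were seen. A few genes are not reported here by name.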

Additional observations from a re-analysis of the deposited data

How the results depend on the processing

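The count of 0 called ribosomal protein genes was the same in the fits with DESeq2's size factors in edgeR, upper-quartile factors, library totals, TMM factors set without ribosomal protein genes, a minimum of 1 CPM in every library, DESeq2 and limma-voom. It was 7 with no filter and ran from 0 to 10 when 1 library was left out, with the 10 found without WT replicate 1. Calls over all genes were 938 in the fit reported, 1568 with no filter, 1325 in DESeq2 and 295 to 2961 when 1 library was left out. The log2 ratio of the summed CPM of the 86 genes was 0.0171 with TMM and -0.0124 with library totals, which moved the median of all genes from -0.0064 to -0.0358. With library totals 14 of the 86 estimates changed sign, none lying further than 0.024 from 0 after the change. With the replicate number as a replicate block, 1 of the 86 genes passed (Rps29, -0.41, adjusted p = 0.0360 in edgeR) and 671 genes in all, and the calls of Eef1a1 (adjusted p = 0.0713) and Rps10-ps1 (0.0898) were lost. Deviations of same-numbered libraries correlated at -0.036, -0.037 and 0.028, so no effect shared by same-numbered libraries was seen. This cannot tell whether such libraries were prepared together, which the labels do not state. The alternatives that remove a trend with gene length were not run, because the table has no gene lengths. The cause of these dependences was not tested. The intervals of Rpl24, Rpl32l, Rpl39l, Rps4l and Rps29 reached beyond 1.5-fold. Of these, the first 4 had fewer than 1000 counts in at least 1 library.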
